A study of Saccharomyces cerevisiae with 36 samples.

Results

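The large subunit of the yeast mitochondrial ribosome was followed through its nuclear genes with the standard name MRPL, together with RML2. By this rule 35 of the 6697 genes in the count table were members, of which 22 encode a relative of a bacterial ribosomal protein and 13 a protein specific to mitochondria. Of the 35 members 34 passed the filter on low counts and could be tested. The remaining one was MRPL38 (YKL170W), whose product is uL14m. MRPL38 had between 0 and 7 counts in all 36 libraries.

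Mitochondrial ribosomes translate the few mRNAs of the mitochondrial genome, most of which encode subunits of the respiratory chain and ATP synthase. Their RNA is made inside the organelle, but nearly all of their proteins are encoded in the nucleus, made in the cytosol and imported. In yeast, many of the nuclear mRNAs for mitochondrial ribosomal proteins are bound in the 3′ UTR by Puf3, an RNA-binding protein that acts on the stability, translation and mitochondrial localisation of its targets.

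All samples were liquid cultures of Saccharomyces cerevisiae W303 Ade+. In the first strain, called IDRm, the genotype was Ded1_IDRm-mCherry, and in the second, called WT, it was Ded1-mCherry, so that both carried the mCherry tag on Ded1, a DEAD-box RNA helicase that helps ribosomes start translation. Each main culture was split and held for 10 min at 30, 40 or 42 °C. RNA came from the insoluble fraction (pellet), from the soluble fraction and from whole cells (total), with ribosomal RNA depleted. This gave 18 groups of 2 libraries each, and duplicates came from separately inoculated cultures.

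Libraries held between 4934241 and 13730247 counts. Levels are given as CPM, the counts scaled by the TMM-adjusted library size. Each level is thus a share of its library, and in these bulk samples fewer cells with the transcript and less of it per cell cannot be told apart. In total RNA at 30 °C, DED1 had 985 and 1174 CPM in IDRm, against 1993 and 1449 CPM in WT. HSP104, a disaggregase gene used as a check of the heat treatment, was 5.13 ± 0.16 higher at 40 than at 30 °C in IDRm and 5.04 ± 0.16 higher in WT (log2, ± standard error of the fit). The soluble library of WT at 42 °C, replicate 2, stood apart, with the lowest total count and a correlation of 0.970 with its replicate across genes. The 2 total libraries of WT at 30 °C were correlated at 0.990. In IDRm at 42 °C the soluble pair was correlated at 0.980 and the pellet pair at 0.987. In the WT fractions at 30 °C the heat genes HSP104, SSA4, HSP26 and HSP42 were each higher in replicate 2 than in replicate 1. HSP26 had 9.60 and 45.4 CPM in the pellet and 9.45 and 194 CPM in the soluble RNA. SSA4 had 190 and 605 CPM in the pellet and 240 and 1151 CPM in the soluble RNA. WT calls lost without a total library of WT at 30 °C, or without the soluble library that stood apart, are counted or named beside the results.

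The recognition element of Puf3 stood downstream of every member. The search was for the 8 letters TGTANATA on the coding strand in the 200 bases after the stop codon, with overlapping matches kept. All 35 members held it, against 844 of 5989 nuclear protein-coding genes (14.1%). In the first 100 bases after the stop codon, 30 of 35 members held it (85.7%), against 10.2% of all genes. The element was found in 10 of 10 other large-subunit genes of the mitochondrial ribosome, in 31 of 32 small-subunit genes (96.9%) and in 12 of 12 mitochondrial aminoacyl-tRNA synthetase genes. It was found in 4 of 34 nuclear genes of the respiratory chain and ATP synthase (11.8%) and in 3 of 76 cytosolic large-subunit ribosomal protein genes (3.9%). A match is a description of the sequence and does not show binding.

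**Figure D1:**
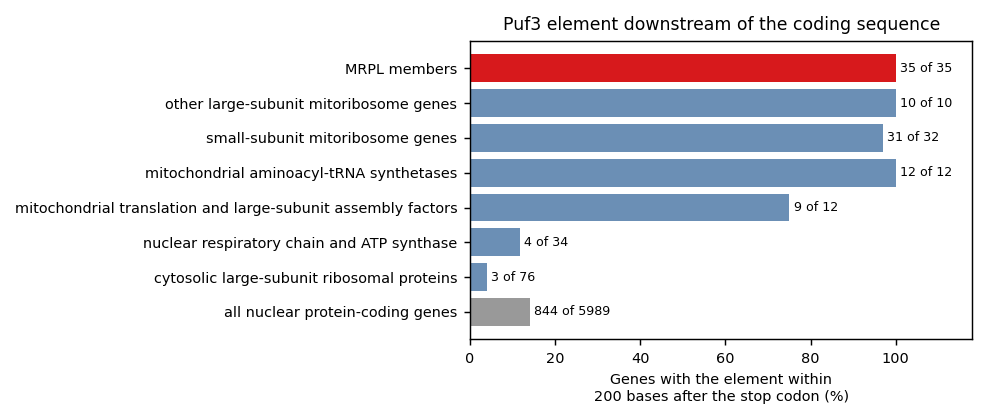
Share of genes with the Puf3 element TGTANATA in the 200 bases after the stop codon (x axis, percent) for MRPL members (red), other gene lists (blue) and all nuclear protein-coding genes (grey), with the counts beside each bar. The bar of the MRPL members covers 35 of 35 genes, and that of all nuclear protein-coding genes 14.1%.

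The sites of the members described most below follow, read 5′ to 3′ from the RefSeq R64 genome with 6 bases on each side. MRPL36 held 2 sites, of which only the one nearer to the stop codon is printed. Capitals mark the element, and the coordinates and strand are those of the printed stretch.
RML2 (YEL050C), chrV:59536-59555, minus strand: caatcaTGTAAATAtaaata
MRPL20 (YKR085C), chrXI:599054-599073, minus strand: caatcgTGTAAATActactc
MRPL37 (YBR268W), chrII:741643-741662, plus strand: tatcctTGTAAATAaatatg
MRPL10 (YNL284C), chrXIV:103080-103099, minus strand: ctcactTGTACATAccttaa
MRPL25 (YGR076C), chrVII:637013-637032, minus strand: taatcaTGTAAATAattttg
MRPL4 (YLR439W), chrXII:1015472-1015491, plus strand: ctctccTGTAAATAtatata
MRPL27 (YBR282W), chrII:768703-768722, plus strand: tatgcgTGTAAATActagtt
MRPL36 (YBR122C), chrII:483855-483874, minus strand: cagcctTGTATATAccgcaa
MRPL28 (YDR462W), first site, chrIV:1386542-1386561, plus strand: tcctgcTGTAAATAactgat
MRPL28, second site, chrIV:1386598-1386617, plus strand: attataTGTACATAgacata

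The members held 43 sites in all, 27 genes having a single site and 8 having several. The first base of the element lay between 13 and 165 bases after the stop codon, with a median of 55. The form TGTAAATA made up 17 of the 43 sites (39.5%), against 27.6% of the 880 sites of other genes, and TGTATATA made up 15 (34.9%), against 50.2%. A C stood 2 bases before the element at 29 of 43 member sites (67.4%), as in RML2 and MRPL20 above, against 25.8% of the other sites. In the promoters, from 250 bases before to 50 bases after the start codon on both strands, the stress element AGGGG was found in 14.3% of members, against 21.6% of all genes.

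In WT cells at 30 °C the members spanned a wide range of levels. Per kilobase of coding sequence, MRPL36 (bL31m) was the highest in total RNA at 30 °C, with 167 ± 16.5 CPM per kb (SD, n = 2). MRPL10 (uL15m) followed with 126 ± 15.0 CPM per kb and MRPL7 (uL5m, a protein of the central protuberance) with 124 ± 18.3 CPM per kb. These last levels differed by less than their SD. The median of the 34 tested members was 48.9 CPM per kb, against 39.2 CPM per kb over 5764 genes with a coding length.

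At the low end stood MRPL44 with 13.4 ± 0.88 CPM per kb, MRPL4 with 8.45 ± 0.03 and MRPL25 with 5.82 ± 0.66 (SD, n = 2). MRPL38, with 0 to 7 counts a library, had 0.64 ± 0.54 CPM per kb, and why its counts were so low was not tested. Of the 33 neighbouring pairs of tested members in this order, 25 differed by no more than the larger of their SDs. MRPL36 was the highest per length in 12 of the 18 groups of the study, and either MRPL4 (11 groups) or MRPL25 (7 groups) was the lowest.

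At 40 °C the same 10 members were called lower in both strains, and in each strain the share called lower was near that of all genes. For calls shared by both strains, here and below, no share over all genes was computed. In IDRm 10 of 34 members were lower and 6 higher at 40 than at 30 °C in total RNA, where 32.6% of all 6090 genes were lower and 37.8% higher. In WT 12 were lower and 4 higher, where 32.6% of all genes were lower and 37.1% higher. All 10 members lower in IDRm were also lower in WT, which share no library. They were RML2, MRPL3, MRPL7, MRPL8, MRPL10, MRPL11, MRPL15, MRPL20, MRPL32 and MRPL37, while MRPL6 and MRPL36 were called in WT alone. MRPL24 and MRPL27 were called higher in both strains, but the WT call of MRPL27 was lost without either total library of WT at 30 °C. Its log2 change in WT was 0.33 in the full fit, 0.31 without replicate 1 and 0.29 without replicate 2. MRPL24 (bL28m) had 28.3 and 30.9 CPM at 30 °C and 40.1 and 45.0 CPM at 40 °C in IDRm. In WT it had 18.8 and 24.8 CPM at 30 °C and 34.1 and 30.6 CPM at 40 °C. Calls are at an adjusted p under 0.05 in the edgeR quasi-likelihood test, with Benjamini-Hochberg adjustment over all genes.

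The number called lower was thus near the share of all genes in each strain, and the number called higher was below it. The median change of the members was 0.00 in IDRm and -0.11 in WT (log2), against 0.08 and 0.07 over all genes. In each strain 10 of the 16 calls held under every alternative that was run. Without the total library at 30 °C, replicate 1, of the same strain, no member was called higher at 40 °C, while 10 were called lower in IDRm and 12 in WT. With RLE scaling 2 were higher and 12 lower in WT. With the trend over the coding length of all genes removed, 1 was higher and 13 lower in IDRm, and 2 were higher and 15 lower in WT. The shares of all genes above are those of the main fit, and none is given for these alternatives.

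**Figure D2:**
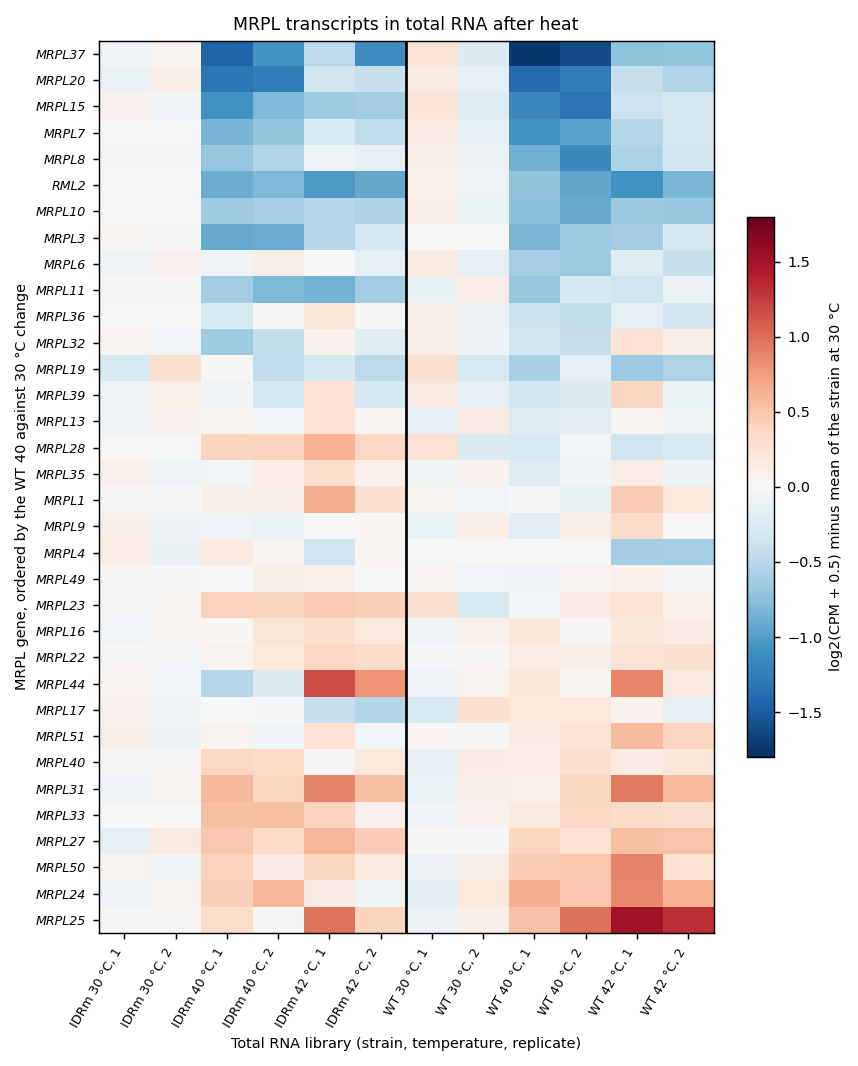
Total RNA level of the 34 tested MRPL members (rows, ordered by the WT change at 40 °C) in each of the 12 libraries (columns, IDRm left and WT right). Colour is log2(CPM + 0.5) minus the mean of the same strain at 30 °C, with blue lower and red higher. The rows of MRPL37 and MRPL20 at the top are darkest blue at 40 °C in both strains, and the row of MRPL25 at the bottom turns red at 42 °C.

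Among proteins near the peptidyl transferase centre, RML2 stood apart from its neighbours. RML2 encodes uL2m, whose bacterial relative is needed for peptide bond formation. In IDRm it had 137 and 135 CPM at 30 °C, 73.2 and 77.4 CPM at 40 °C, and 66.2 and 71.3 CPM at 42 °C. In WT it had 121 and 106 CPM at 30 °C, 68.2 and 58.9 CPM at 40 °C, and 53.0 and 64.1 CPM at 42 °C. Every heated library of a strain was thus below both of its unheated ones, and 42 °C brought no recovery. At 42 against 30 °C the log2 change was -0.98 ± 0.12 in IDRm (adjusted p = 3.49e-06) and -0.96 ± 0.12 in WT (adjusted p = 6.24e-06). MRPL16 (uL16m) and MRPL9 (uL3m), whose bacterial relatives also reach towards this centre, were called in neither strain at 40 or 42 °C. MRPL16 ranged from 51.9 to 65.2 CPM in the IDRm total libraries and from 45.6 to 56.5 CPM in those of WT.

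Both members with an RNase III-like fold fell at 40 °C. MRPL15 (mL57) had 73.2 and 65.9 CPM at 30 °C in IDRm and 32.3 and 39.6 CPM at 40 °C. In WT it had 75.9 and 54.8 CPM at 30 °C and 28.6 and 25.4 CPM at 40 °C. The ranges of the temperatures did not overlap in either strain, and the log2 change was -0.95 ± 0.15 in IDRm and -1.27 ± 0.16 in WT. MRPL3 (mL44) was lower by a log2 change of -0.91 ± 0.13 in IDRm and -0.73 ± 0.13 in WT.

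At 40 against 30 °C the deepest falls were in mitochondria-specific proteins without a bacterial relative. MRPL37 (mL54) had 24.6 and 26.9 CPM at 30 °C, 9.20 and 11.9 CPM at 40 °C, and 18.5 and 11.6 CPM at 42 °C in IDRm. In WT it had 33.4 and 23.6 CPM at 30 °C, 8.09 and 8.90 CPM at 40 °C, and 16.9 and 17.2 CPM at 42 °C. Both strains were lowest at 40 °C, with no overlap with 30 °C. The log2 change at 40 °C was -1.28 ± 0.22 in IDRm (adjusted p = 6.15e-05) and -1.73 ± 0.22 in WT (adjusted p = 4.04e-06).

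MRPL20 (mL58) followed the same course at a slightly higher level. Its total RNA level in IDRm was 34.2 and 40.7 CPM at 30 °C, 14.8 and 15.4 CPM at 40 °C, and 29.4 and 28.0 CPM at 42 °C. In WT the values were 45.7 and 36.2 CPM at 30 °C, 15.3 and 16.8 CPM at 40 °C, and 30.3 and 27.7 CPM at 42 °C. At each temperature the strains lay close together, and both 42 °C libraries fell between those at 40 and 30 °C. The log2 change at 40 against 30 °C was -1.31 ± 0.15 in IDRm (adjusted p = 1.06e-06) and -1.34 ± 0.15 in WT (adjusted p = 8.98e-07).

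**Figure D3:**
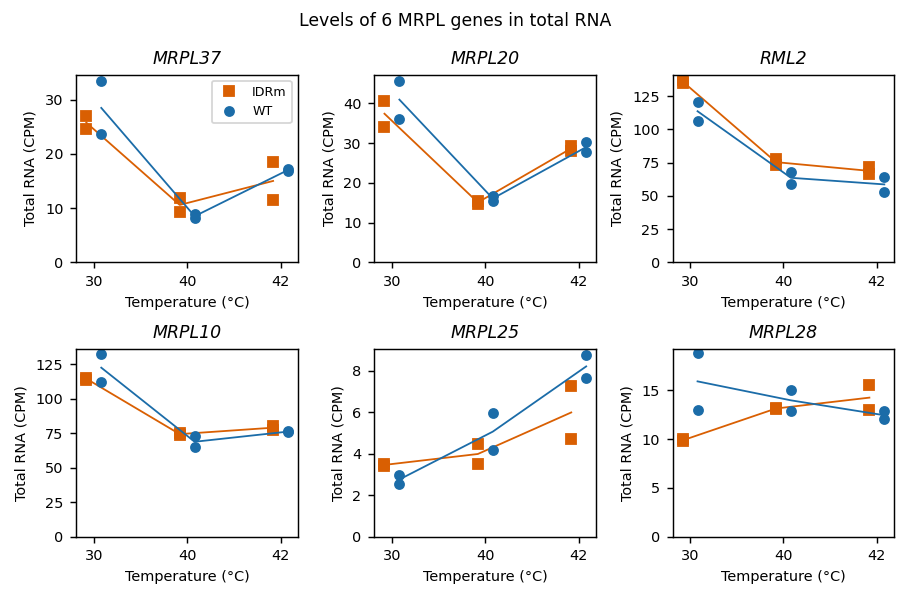
Total RNA level (y axis, CPM, from 0) of 6 MRPL genes at 30, 40 and 42 °C (x axis) in IDRm (orange squares) and WT (blue circles). Each point is a library and lines join the means of the 2 libraries. MRPL37 and MRPL20 are lowest at 40 °C, RML2 and MRPL10 stay low at 42 °C, and MRPL25 is highest at 42 °C.

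Other members were lowered at 40 °C by less than MRPL37 and MRPL20. MRPL10 (uL15m) had 114 and 115 CPM at 30 °C, 73.4 and 75.2 CPM at 40 °C, and 80.4 and 77.6 CPM at 42 °C in IDRm. In WT it had 133 and 112 CPM at 30 °C, 72.7 and 64.9 CPM at 40 °C, and 76.5 and 75.8 CPM at 42 °C. Like RML2, it stayed below its level at 30 °C in all heated libraries, with a log2 change at 42 °C of -0.54 ± 0.11 in IDRm and -0.69 ± 0.11 in WT. MRPL7 (uL5m), MRPL8 (bL17m) and MRPL32 (bL32m, which the m-AAA protease must process before it can be assembled) also fell at 40 °C in both strains. Their log2 changes were -0.78, -0.61 and -0.54 in IDRm, and -1.04, -1.02 and -0.38 in WT. MRPL11 (uL10m), of the stalk that receives translation factors, fell by 0.73 in IDRm and by 0.48 in WT on the log2 scale. The WT call of MRPL11 was lost in 2 of 12 alternatives, among them without replicate 2 at 30 °C (-0.36), and that of MRPL32 in 3 of 12, among them without replicate 1 at 30 °C (-0.31). Its partner in the stalk, MRPL19 (uL11m), was called lower in WT at 42 °C, a call lost in 4 of 12 alternatives, and in no other heated group. It overlaps the annotated gene YNL184C, so reads of both may be mixed.

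Between 40 and 42 °C members were called higher at shares close to those of all genes, and few were called lower. In IDRm 6 members were higher and 2 lower at 42 than at 40 °C, where 21.2% and 21.1% of all genes were. In WT 9 were higher and 1 lower, where 24.6% and 22.3% of all genes were. MRPL7, MRPL8, MRPL20 and MRPL32 were higher in both strains, which is 4 of 6 in IDRm and 4 of 9 in WT. All of these are among the 10 members lower at 40 °C, which were chosen in the same 40 °C libraries, so a rise from 40 °C is favoured by that choice. For MRPL20 the log2 change was 0.93 ± 0.16 in IDRm and 0.85 ± 0.15 in WT, both with an adjusted p under 0.05 (0.000226 and 0.000307, edgeR).

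At 42 against 30 °C members were as often higher as lower. In IDRm 8 of 34 were higher and 9 lower, where 33.7% and 31.0% of all genes were. In WT 8 were higher and 9 lower, where 33.3% and 28.1% of all genes were. Without replicate 1 of WT at 30 °C, 7 of these 17 WT calls were lost, among them those of MRPL7, MRPL20 and MRPL37, and without replicate 2 there 3 were lost. Members higher in both strains were MRPL22, MRPL25, MRPL27, MRPL31 and MRPL44, and members lower in both were RML2, MRPL3, MRPL7, MRPL10, MRPL20 and MRPL37. The split depended on the scaling and on coding length. Upper-quartile scaling gave 9 higher and 5 lower in IDRm, where it moved the median of all genes to 0.14, and RLE scaling gave 6 higher and 12 lower in WT. With the trend over coding length removed, 1 member was higher and 14 lower in IDRm, and 2 were higher and 15 lower in WT. Shares of all genes called under these alternatives are not given here.

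MRPL25 (mL59), the lowest tested member per length in WT total RNA at 30 °C, had the largest rise over 30 °C in WT. In IDRm it had 3.42 and 3.50 CPM at 30 °C, 4.45 and 3.53 CPM at 40 °C, and 7.26 and 4.73 CPM at 42 °C. In WT it had 2.54 and 2.98 CPM at 30 °C, 4.17 and 5.97 CPM at 40 °C, and 8.76 and 7.68 CPM at 42 °C. In both strains the 42 °C libraries lay above those at 30 °C, and in WT the temperatures did not overlap. The log2 change at 42 against 30 °C was 0.80 ± 0.26 in IDRm (adjusted p = 0.0145) and 1.56 ± 0.25 in WT (adjusted p = 6.89e-05). Its counts ranged from 14 to 93 in all libraries, so its levels are among the least precise.

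MRPL44 (mL53), the only member with an intron in its coding sequence, had 4.0 and 3.69 CPM at 30 °C, 2.53 and 3.13 CPM at 40 °C, and 9.23 and 7.09 CPM at 42 °C in IDRm. Both libraries at 42 °C were above all others of the strain, and the change against 40 °C was 1.52 ± 0.27 (log2, adjusted p = 0.000361). In WT its 42 °C libraries had 7.72 and 4.57 CPM and were 0.62 ± 0.26 above 30 °C (log2, adjusted p = 0.0459), a call that was lost in 9 of 12 alternatives.

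Of the 3 members grouped here at the exit of the peptide tunnel, MRPL22 (uL22m) rose slightly at 42 °C and MRPL4 (uL29m) fell in WT. In total RNA MRPL40 (uL24m) was called only in IDRm at 40 °C. MRPL22 had 110 and 108 CPM at 42 °C and 86.8 and 84.0 CPM at 30 °C in IDRm, a log2 change of 0.35 ± 0.10. In WT it had 106 and 108 CPM at 42 °C and 87.4 and 89.7 CPM at 30 °C, a log2 change of 0.28 ± 0.10. The temperatures did not overlap, but the WT call was lost in 10 of 12 alternatives. MRPL4 had 5.09 and 5.15 CPM at 42 °C in WT, against 8.14 and 8.09 CPM at 30 °C.

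MRPL49 was called in no comparison of total RNA. MRPL49 (bL21m) ranged from 43.7 to 47.6 CPM over the 6 total libraries of IDRm and from 39.1 to 43.9 CPM over those of WT. MRPL39 (bL33m) ranged from 10.4 to 15.9 CPM in IDRm and from 10.7 to 17.8 CPM in WT, and was not called in total RNA either. MRPL36, the most abundant member per length, ranged from 61.4 to 86.5 CPM in IDRm and from 65.9 to 95.2 CPM in WT, where it was lower at 40 than at 30 °C by a log2 change of -0.41 ± 0.13 (adjusted p = 0.0089). Summed over all members, total RNA held 1329 ± 3.91 CPM at 30 °C, 1086 ± 37.9 at 40 °C and 1206 ± 63.4 at 42 °C in IDRm. In WT the sums were 1358 ± 79.8, 1021 ± 1.83 and 1215 ± 18.6 CPM (SD, n = 2 each).

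Few members differed between the strains. At 30 °C 2 of 34 members differed between IDRm and WT, where 12.9% of all genes did. MRPL28 (mL40) had 9.96 and 9.78 CPM in IDRm, against 18.8 and 13.0 CPM in WT, and MRPL23 (uL13m) had 14.4 and 15.2 CPM, against 26.2 and 17.7 CPM. In both genes all IDRm values were below all WT values, with log2 differences of -0.68 ± 0.19 and -0.56 ± 0.17. Neither was called without replicate 1 of WT at 30 °C, the higher of its 2 libraries, without either IDRm library, or in a fit of these 4 libraries alone.

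No member differed between IDRm and WT in its change at 40 °C by the edgeR test, where 1.64% of all genes did, and 1 differed in its change at 42 °C, where 11.8% did. That member was MRPL28, which at 42 °C had 15.6 and 12.9 CPM in IDRm, against 12.1 and 12.8 CPM in WT. Its change at 42 °C was 0.53 ± 0.19 in IDRm and -0.35 ± 0.18 in WT (log2), a difference of 0.88 ± 0.27 (adjusted p = 0.0432). The call was lost in 11 of 16 alternatives, among them DESeq2 and the fit with the replicate number as a block.

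The message of PUF3 itself had 38.9 and 37.7 CPM at 42 °C and 57.1 and 50.4 CPM at 30 °C in IDRm. In WT it had 41.9 and 38.5 CPM at 42 °C and 58.3 and 47.1 CPM at 30 °C. It was lower at 42 than at 30 °C in both strains, by a log2 change of -0.49 ± 0.13 in IDRm and -0.39 ± 0.13 in WT, without overlap of the libraries.

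In the fractions, large-subunit transcripts were depleted from the pellet at every temperature. A pellet-soluble difference is the log2 ratio of the CPM of the pellet to that of the soluble RNA. Since each fraction is scaled within itself, a value below 0 means a smaller share of the pellet library than of the soluble library, not a smaller number of molecules. At 30 °C 32 of 34 members were lower in the pellet and 1 higher in IDRm, where 33.7% and 34.5% of all 6141 genes were. In WT 31 were lower and 1 higher, where 34.8% and 33.4% of all genes were. The median difference was -1.14 in IDRm, against 0.05 over all genes, and -1.28 in WT, against -0.02 over all genes.

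At 40 °C 29 members were lower in the pellet and none higher in IDRm, where 35.2% and 36.6% of all genes were, and 28 were lower and 1 higher in WT, where 36.1% and 37.9% were. At 42 °C 30 were lower and 1 higher in IDRm, where 37.4% and 41.3% of all genes were, and 30 were lower and none higher in WT, where 36.7% and 42.4% were. The member medians at 42 °C were -1.37 in IDRm and -1.61 in WT, against 0.10 and 0.16 over all genes. Without the soluble WT library at 42 °C that stood apart, 30 members were again lower, with a median of -1.60.

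**Figure D4:**
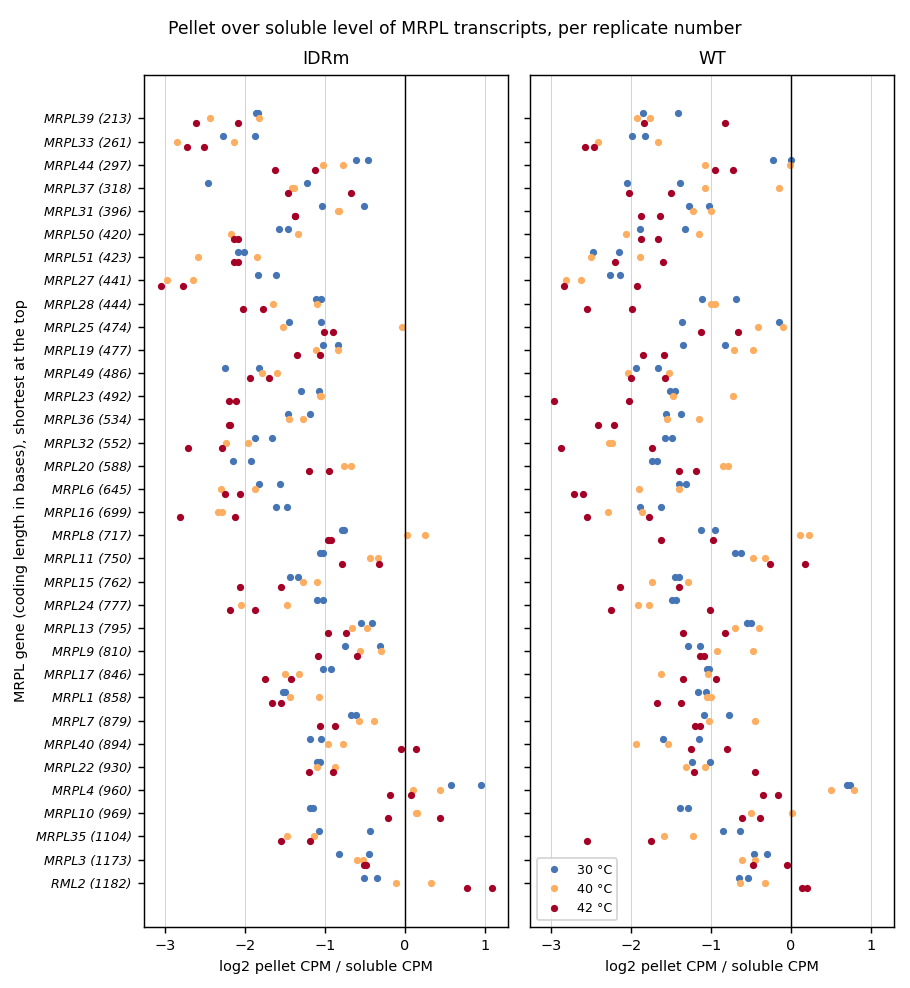
Log2 ratio of pellet to soluble CPM (x axis) for 34 MRPL members (y axis, shortest coding sequence at the top, length in brackets) in IDRm (left) and WT (right). Each point is a pair of libraries with the same replicate number at 30 °C (blue), 40 °C (orange) or 42 °C (dark red). Most points lie left of 0, MRPL4 lies right of 0 at 30 °C, and RML2 at the bottom lies right of 0 at 42 °C in both strains.

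Among the most depleted members were several with a short coding sequence, but length did not set the order. MRPL6 (uL6m, 645 bases) had the largest difference in WT at 42 °C (-2.66, log2). MRPL44, with only 297 bases, was called in neither strain at 30 °C. MRPL27 (mL41, coding length 441 bases) had 7.07 and 5.29 CPM in the pellet and 48.3 and 43.7 CPM in the soluble RNA of IDRm at 42 °C, a difference of -2.90 ± 0.24 (log2). In WT at 42 °C it had 8.59 and 8.47 CPM in the pellet and 61.2 and 32.1 CPM in the soluble RNA, a difference of -2.47 ± 0.24. MRPL33 (uL30m, 261 bases) and MRPL51 (mL43, 423 bases) were similar, with differences at 30 °C of -2.07 and -2.04 in IDRm and of -1.89 and -2.30 in WT. MRPL51 overlaps the annotated gene YPR099C, and reads of both may be mixed. MRPL49, flat in total RNA, had 13.1 and 13.3 CPM in the pellet and 61.9 and 47.1 CPM in the soluble RNA of IDRm at 30 °C. In WT it had 14.8 and 17.7 CPM in the pellet and 57.0 and 55.9 CPM in the soluble RNA. Its fractions were well apart at all 3 temperatures in both strains.

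Coding length moved with the pellet-soluble difference over all genes and within the group. Across 5781 protein-coding genes Pearson's r between log coding length and the difference lay between 0.45 and 0.62 in the 6 conditions. Across the 34 members it lay between 0.31 and 0.58. These are descriptions across genes of the same libraries, and genes are not independent replicates. The median coding length of the members was 645 bases, against 1197 bases over all nuclear protein-coding genes.

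With the trend over coding length removed, the member medians stayed below 0, but by less. The member medians were then -0.48, -0.51 and -0.56 at 30, 40 and 42 °C in IDRm, and -0.58, -0.41 and -0.56 in WT. The numbers called lower in the pellet were 20, 19 and 19 in IDRm, and 24, 17 and 23 in WT, with 1 to 4 members called higher. The shares of all genes called in this fit are not given here. MRPL27 remained lower in all 6 conditions, while MRPL13 and MRPL31 were no longer called lower in 5 of 6. MRPL11 was called higher in IDRm at 42 °C and in WT at 40 °C.

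**Figure D5:**
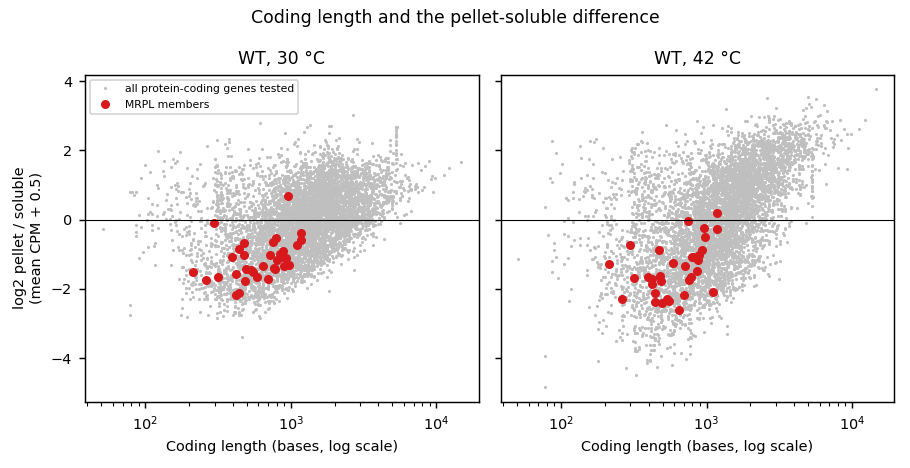
Coding length (x axis, bases, log scale) against the log2 ratio of mean pellet to mean soluble CPM, each plus 0.5 (y axis), in WT at 30 °C (left) and 42 °C (right). Grey points are protein-coding genes and red points the 34 tested MRPL members. Short genes lie lower in both panels, and most members lie in the lower part of the cloud at their length.

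MRPL4 was higher in the pellet at 30 °C in both strains and at 40 °C in WT. It encodes uL29m at the tunnel exit, and with 960 bases it is one of the longer members. In IDRm at 30 °C it had 13.6 and 12.1 CPM in the pellet, against 9.10 and 6.28 CPM in the soluble RNA, and in WT it had 10.2 and 10.8 CPM, against 6.14 and 6.61 CPM. The fractions did not overlap, and the difference was 0.75 ± 0.20 in IDRm (adjusted p = 0.00236) and 0.72 ± 0.21 in WT (adjusted p = 0.00474). At 40 °C it had 10.7 and 10.6 CPM in the pellet and 9.94 and 7.85 CPM in the soluble RNA of IDRm, and in WT 8.84 and 10.2 CPM in the pellet and 6.24 and 5.91 CPM in the soluble RNA. The pellet was above the soluble RNA in both strains, and the difference was called in WT (0.65 ± 0.22). At 42 °C it had 6.78 and 7.90 CPM in the pellet and 6.46 and 9.01 CPM in the soluble RNA of IDRm, and in WT 8.67 and 9.63 CPM in the pellet and 9.73 and 12.2 CPM in the soluble RNA. The fractions overlapped in IDRm and the pellet lay lower in WT, with no call in either strain.

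Heat moved a minority of members between the fractions, in both directions. The shift is the change of the pellet-soluble difference against 30 °C. In WT the 30 °C libraries used for it are those in which the heat genes differed between replicates. At 40 °C 5 members shifted towards the pellet and 1 towards the soluble RNA in IDRm, where 13.0% and 8.89% of all genes did. In WT 3 shifted towards the pellet and none towards the soluble RNA, where 13.0% and 7.98% of all genes did. MRPL8, MRPL10 and MRPL20 shifted towards the pellet in both strains. At 42 °C 4 shifted towards the pellet and 8 towards the soluble RNA in IDRm, where 23.5% and 13.7% of all genes did. In WT 3 shifted towards the pellet and 7 towards the soluble RNA, where 23.6% and 14.7% of all genes did. Only 5 of the 12 IDRm calls and 5 of the 10 WT calls at 42 °C held under every alternative that was run.

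These splits depended on the scaling of the fractions, as RLE and upper-quartile scaling moved the median shift of all genes by more than 0.1. Upper-quartile scaling gave 2 up and 3 down at 40 °C and 3 up and 14 down at 42 °C in IDRm, and 2 up and 1 down at 40 °C and 2 up and 10 down at 42 °C in WT. Under RLE scaling the median over all genes was -0.16 at 40 °C and -0.14 at 42 °C in IDRm, and -0.13 and -0.18 in WT, against -0.01, 0.03, 0.03 and 0.06 with TMM. With RLE scaling the members that shifted up and down were 2 and 3 at 40 °C and 4 and 11 at 42 °C in IDRm, and 2 and 1 at 40 °C and 2 and 12 at 42 °C in WT. With the trend over coding length removed, the same numbers were 5 and 2 at 40 °C and 5 and 5 at 42 °C in IDRm, and 3 and 0 at 40 °C and 4 and 5 at 42 °C in WT. Without the soluble WT library at 42 °C that stood apart, TMM gave 2 up and 7 down in WT.

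RML2 and MRPL10 were the members called as shifted towards the pellet at 42 °C in both strains. Of the other members lower in total RNA at 42 °C in both strains, MRPL20 was called as shifted in IDRm alone, and MRPL3, MRPL7 and MRPL37 in neither. RML2 had 97.6 and 94.6 CPM at 30 °C, 71.0 and 79.1 CPM at 40 °C, and 107 and 100.3 CPM at 42 °C in the pellet of IDRm. In the soluble RNA of IDRm it had 124 and 135 CPM at 30 °C, 76.6 and 63.2 CPM at 40 °C, and 50.4 and 58.7 CPM at 42 °C. The order of the fractions was thus turned round at 42 °C, where the pellet was higher by 0.93 ± 0.14 (log2, adjusted p = 4.07e-06). In WT at 42 °C it had 71.0 and 86.8 CPM in the pellet and 64.3 and 75.3 CPM in the soluble RNA, and these ranges overlapped. The shift against 30 °C was 1.36 ± 0.19 in IDRm (adjusted p = 1.78e-05) and 0.77 ± 0.19 in WT (adjusted p = 0.00351).

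MRPL10 had 90.1 and 54.8 CPM in the pellet and 66.7 and 63.5 CPM in the soluble RNA of IDRm at 42 °C. At 30 °C it had 52.4 and 51.0 CPM in the pellet and 116 and 116 CPM in the soluble RNA of IDRm. In WT it had 73.4 and 81.7 CPM in the pellet and 112 and 107 CPM in the soluble RNA at 42 °C, and 56.3 and 52.2 CPM in the pellet and 138 and 136 CPM in the soluble RNA at 30 °C. In both strains the gap between the fractions was wide at 30 °C and narrower at 42 °C. Its shift was 1.32 ± 0.24 in IDRm and 0.84 ± 0.23 in WT (log2). MRPL40 (uL24m) shifted by 1.15 ± 0.23 at 42 °C in IDRm, where it had 31.1 and 32.3 CPM in the pellet and 28.3 and 33.5 CPM in the soluble RNA. It was not called in WT.

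At 42 °C MRPL4, MRPL23, MRPL28 and MRPL36 shifted towards the soluble RNA in both strains. MRPL36 had 23.8 and 17.6 CPM in the pellet and 108 and 80.4 CPM in the soluble RNA of IDRm at 42 °C. At 30 °C it had 29.8 and 31.9 CPM in the pellet and 82.3 and 72.7 CPM in the soluble RNA of IDRm. Its shift was -0.86 ± 0.23 in IDRm and -0.85 ± 0.23 in WT (log2). All its IDRm pellet libraries were lower at 42 than at 30 °C, while the soluble ranges overlapped. MRPL23 shifted by -0.96 ± 0.28 in IDRm and by -1.02 ± 0.30 in WT. MRPL28 shifted by -0.84 ± 0.31 in IDRm and by -1.36 ± 0.32 in WT. MRPL35 (mL38) shifted by -1.40 ± 0.28 in WT and was not called in IDRm. Without the soluble WT library at 42 °C that stood apart, the WT shifts were -1.16 for MRPL35, -1.14 for MRPL28, -0.70 for MRPL36, 0.89 for RML2 and 0.81 for MRPL10, all still called. Those of MRPL4 (-0.81), MRPL23 (-0.72), MRPL13 (-0.31) and MRPL11 (0.54) were then no longer called. No member differed between IDRm and WT in its shift at 42 °C by the edgeR test, where 0.114% of all genes did.

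The 10 members lower at 40 °C in both strains were compared with the other 24 as a description, since they were chosen by these changes. Their median level in WT at 30 °C was 87.7 CPM per kb, against 36.2 CPM per kb in the others, and their median coding length was 756 bases, against 513 bases. The form TGTAAATA was present downstream of 6 of the 10 and of 11 of the 24. Of the 10, 4 were mitochondria-specific, against 9 of the 24.

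Split by the form of the element, 17 tested members held TGTAAATA and 17 held another form alone. At 40 °C 6 of the first 17 were lower and 1 higher in IDRm, against 4 lower and 5 higher of the second. In WT 7 of the first were lower and 2 higher, against 5 lower and 2 higher of the second. Of all genes 32.6% were lower in each strain, with 37.8% higher in IDRm and 37.1% in WT. A difference between the forms was not tested. In the pellet at 30 °C the medians were -1.08 and -1.16 in IDRm, and -1.07 and -1.38 in WT.

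Other genes of mitochondrial translation give the setting of these values. Of 32 small-subunit genes, 11 were lower and 5 higher at 40 °C in IDRm total RNA, and 14 were lower and 6 higher in WT. Of the 10 other large-subunit genes, 1 was lower and 2 higher in IDRm, and 3 were lower and 2 higher in WT. In the pellet at 30 °C, 27 of the 32 small-subunit genes were lower in IDRm and 26 in WT, with medians of -1.04 and -1.16. Of the 12 mitochondrial aminoacyl-tRNA synthetase genes, which carry the same element but have a median coding length of 1669.5 bases, none was lower in the pellet at 30 °C in either strain, and 5 were higher in IDRm and 6 in WT. Of the 34 nuclear genes of the respiratory chain and ATP synthase, 27 were higher at 40 °C in IDRm and 23 in WT, and 28 and 30 were lower in the pellet at 30 °C. Cytosolic large-subunit ribosomal protein genes were lower at 40 °C for 63 of 72 tested in IDRm and 67 of 72 in WT. None of these lists was tested against the MRPL members.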

How the data were processed

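The authors deposited raw read counts per gene for all 36 libraries, whole numbers without normalisation. Per the submitters' processing notes, reads were handled with bcl2fastq 2.19.1 and STAR 2.5.2b on the R64 genome. How reads were counted, and whether by strand, is not given in the sources used here, so overlapping genes may share reads. Members, gene lists and the rule for naming genes were chosen with earlier results of these data known.

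The test was edgeR's quasi-likelihood F test (edgeR 4.0.16, limma 3.58.1, R 4.3.3), robust and TMM-scaled, on genes that passed filterByExpr (min.count 10). The 12 total libraries (6090 genes, 6 residual degrees of freedom) and the 24 fraction libraries (6141 genes, 12 residual degrees of freedom) were fitted separately, with 1 term per group. P-values were adjusted by the Benjamini-Hochberg method within a contrast over all genes tested, and a gene was called at an adjusted p under 0.05. Values after ± are standard errors of the fit unless named as SD. On simulated counts, the fit of total RNA for WT at 40 against 30 °C recovered 82.8% of genes changed 2-fold and 100% of those changed 4-fold among 6054 genes, with 12 false calls. The fit of pellet against soluble RNA for WT at 42 °C recovered 88.9% and 98.0% among 6090 genes, with 12 false calls. The simulation gave every gene the same dispersion and changed only 200 genes, equally up and down. It held no library that stood apart, so these rates do not measure performance on the real libraries.

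Members were found by symbol and locus tag. Elements were searched in the RefSeq R64 genome, which has the build of the counts, for 5989 nuclear protein-coding genes. The rule for naming with values picked, per contrast, up to 3 called members with the largest change in each direction. It also picked RML2, MRPL32, MRPL36, MRPL49 and MRPL39, the 3 highest and 3 lowest members per length, DED1 and PUF3. Not every pick was given a value in its contrast, among those left out MRPL6, MRPL31, MRPL33 and MRPL50. Other members named were chosen after their values were seen. Alternatives were RLE and upper-quartile scaling, DESeq2 1.42.0, no filter, the replicate number as a block, removal of the trend over GC content or coding length, a fit of the compared groups alone, and leaving out each library. Libraries held between 4934241 and 13730247 counts; MRPL25 had 14 to 93 counts a library and RML2 277 to 1499, which sets their precision.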

Additional observations from a re-analysis of the deposited data

Results flagged for a closer look

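The change of MRPL28 in total RNA at 42 against 30 °C differed between the strains, with an interaction of 0.88 (log2, IDRm minus WT; adjusted p = 0.0432, edgeR). The 2 IDRm libraries were higher at 42 than at 30 °C, and the 2 WT libraries at 42 °C lay below both at 30 °C. The level at 30 °C was itself lower in IDRm, and the interaction was lost when any 1 library except replicate 2 of WT at 30 °C was left out.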

How the results depend on the processing

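With 2 libraries a group, calls near the threshold moved with single libraries. Counts of called members under the fits that leave out each library in turn ranged from 9 to 18 (17 in the full fit) for WT and from 9 to 12 (17) for IDRm at 42 against 30 °C. They ranged from 6 to 12 (10) for WT and from 4 to 8 (8) for IDRm at 42 against 40 °C, and from 10 to 13 (16) for IDRm at 40 against 30 °C. The losses past 1.5 times came without WT replicate 1 at 30 °C (11), 40 °C (6) or 42 °C (9), without IDRm replicate 1 at 30 °C (10 at 40 °C and 11 at 42 °C), 40 °C (4) or 42 °C (9 and 5), and without IDRm replicate 2 at 30 °C (10). For IDRm against WT at 30 °C the range was 0 to 6 (2), for the strain difference in the change at 40 °C 0 to 2 (0) and at 42 °C 0 to 3 (1). It was 2 to 4 (6) for the shift of IDRm at 40 °C, where 6 of 8 libraries mattered, and 0 to 2 (0) for the strain difference in the shift.

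DESeq2 called 6 members in WT at 42 against 40 °C. For IDRm against WT at 30 °C a fit of those groups alone called 0 members. For the strain difference at 42 °C, RLE scaling and removal of the length trend called 2 members each, while DESeq2, removal of the GC trend and the fit of those groups alone called 0. Removal of the length trend left 21 called for the pellet of IDRm at 30 °C, and the fit of those groups alone gave 6 for the shift of WT at 40 °C. The element was found in 85.7% of members in the window of 100 bases. Of 161 such counts under other alternatives 149 stayed within 1.5 times, and 174 of 302 single calls held under all alternatives.

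With the length trend removed, some members called lower in the pellet took a value above 0. In IDRm these were MRPL9 (0.049), MRPL13 (0.10), MRPL19 (0.057) and MRPL31 (0.22) at 30 °C, MRPL9 (0.14), MRPL11 (0.27), MRPL13 (0.024), MRPL20 (0.14) and MRPL31 (0.035) at 40 °C, and MRPL11 (0.31), MRPL20 (0.068), MRPL25 (0.27) and MRPL37 (0.045) at 42 °C. In WT these were MRPL11 (0.00017), MRPL13 (0.071) and MRPL28 (0.0042) at 30 °C, MRPL11 (0.30), MRPL13 (0.073), MRPL19 (0.25) and MRPL20 (0.041) at 40 °C, and MRPL25 (0.14) and MRPL44 (0.29) at 42 °C.

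The labels do not say that a replicate number follows 1 culture. Libraries with the same number deviated together, at a correlation over 0.1, in 5 of 24 pairs (range -0.44 to 0.64). With the replicate number as a block, 1 member was called for IDRm against WT at 30 °C and 0 for the strain difference at 42 °C, and the other counts stayed within 1.5 times of the fit without the pairing.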
